A study of Mus musculus with 6 samples.

Results

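The classical cadherins and their close relatives were followed here as 10 genes chosen by symbol, *Cdh1*, *Cdh2*, *Cdh3*, *Cdh4*, *Cdh5*, *Cdh6*, *Cdh10*, *Cdh11*, *Cdh13* and *Cdh15*, out of the 56953 genes in the deposited table. All 10 were matched by their Ensembl identifiers. RNA sequencing was performed on cultured mouse embryonic fibroblasts (MEFs), the connective tissue cells that grow out of dissociated embryos, in 3 libraries labelled WT and 3 labelled GαqKO. The study describes the GαqKO cells as MEFs that lack both Gαq and Gα11, the α subunits that couple many receptors to phospholipase Cβ. The labels name no treatment, and both groups were grown in the same serum-containing medium. Whether the replicates came from separate embryos or from 1 line of each genotype is not given in the sources used here, so any other difference between the lines cannot be told apart from the genotype, and p-values measure the spread between these libraries only.

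Classical cadherins are single-pass membrane proteins that hold neighbouring cells together. Their extracellular domains bind calcium and pair with cadherins on the opposite cell, and their cytoplasmic tails bind β-catenin, plakoglobin and p120-catenin, which through α-catenin link the junction to actin. Type I members carry a conserved tripeptide in the adhesive interface and include E-, N-, P-, R- and M-cadherin, whereas type II members such as cadherin-6, cadherin-10 and OB-cadherin pair through a wider interface, and VE-cadherin is usually placed beside them. T-cadherin is the exception among the 10, since it is held in the membrane by a glycolipid anchor and has no cytoplasmic tail. Epithelial cells typically carry E- and P-cadherin, and mesenchymal cells typically carry N- and OB-cadherin.

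Expression is given in normalized counts, the number of reads on a gene after the authors scaled each library by its own size factor. They summed to between 11392429 and 11483486 per library, and the reads behind 5 of the libraries, recovered from the deposited values, were between 9853000 and 12229175. A gene was tested if 3 or more libraries held it at 10 normalized counts or above, and limma was fitted to log2(normalized count + 1) with Benjamini-Hochberg adjustment over 14096 genes. A gene is called here when its adjusted p is under 0.05 and its log2 fold change is over 1 or under -1. Of the targeted genes, *Gna11* was 2148 ± 29.02 normalized counts in WT and 452 ± 28.7 in GαqKO (SD, n = 3 each), whereas *Gnaq* was 1691 ± 48.5 and 1926 ± 36.0. The RNA level of *Gnaq* was thus not lower in the libraries labelled GαqKO and does not check the label. For its GαqKO MEFs the study reports a lack of Gαq protein by Western blot and immunofluorescence, which RNA levels do not measure. Of 10 fibroblast markers, *Vim*, *Col1a1*, *Col1a2*, *Col3a1*, *Fn1* and *Pdgfrb* were well detected in all 6 libraries, with a summed level of the list of 84228 to 89978 in WT and 62442 to 65644 in GαqKO. Of the 9 that were tested, 3 were called higher, beside 10.2% of all tested genes, and 1 lower, beside 10.5%. The latter was *Col1a1*, at 16671 ± 1168 in WT and 5774 ± 272 in GαqKO (limma, log2 fold change -1.53, adjusted p = 2.11e-11). At the adjusted p alone 4 were higher and 5 lower, beside 31.8% and 34.1% of all tested genes. *Lum* was at most 4.03 in any library and was not tested. *Thy1*, which passed the filter through the GαqKO libraries alone, was at no more than 2.09 in WT and at 59.0 to 76.5 in GαqKO. *Pdgfra* and *Dcn* were 19.6 and 32.1 on average in WT against 2320 and 1663 in GαqKO (limma, adjusted p = 8.44e-15 and 2.14e-14).

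The 10 genes split in opposite directions. *Cdh3* and *Cdh1* were abundant in WT MEFs and close to absent in GαqKO MEFs, *Cdh11*, *Cdh6* and *Cdh13* were low in WT and abundant in GαqKO, and *Cdh2* was alike in level in both. Of the 10, 7 had enough counts to be tested. Of these, 3 were called higher, beside 10.2% of all tested genes, and 3 were called lower, beside 10.5%, and of the latter *Cdh10* was near the limit of detection. With calls in either direction at 20.7% of all tested genes, and with 65.8% past the adjusted p alone (31.8% higher and 34.1% lower), a call is common in this comparison, and *Cdh3*, *Cdh1*, *Cdh10* and *Cdh6* needed the group in which they were high to pass the filter, so the counts describe these genes and are no evidence about the family. The median log2 fold change of the 7 was -0.04, and that of all tested genes was -0.01. Since these are bulk libraries, fewer cells with a cadherin and less of its RNA per cell cannot be told apart.

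**Figure D1:**
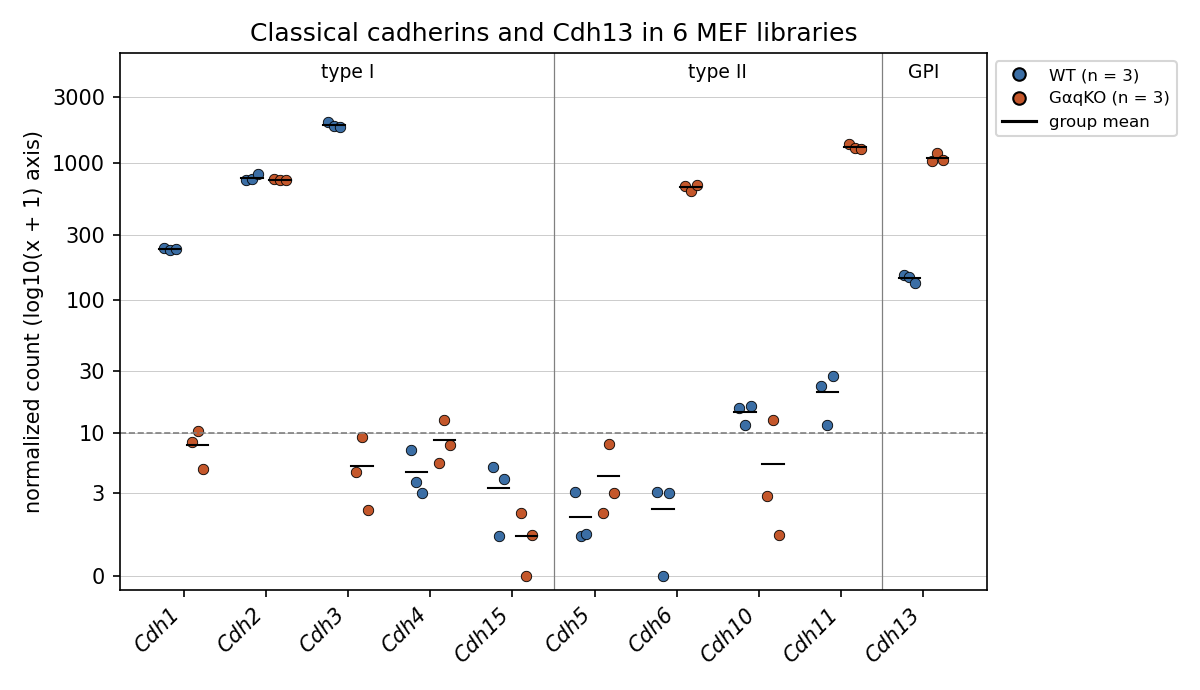
Normalized counts of the 10 cadherin genes, on a log10(x + 1) axis, in 3 WT and 3 GαqKO libraries. Points are libraries, bars are group means, and the dashed line at 10 normalized counts is the level used by the filter; *Cdh3* and *Cdh1* sit high in WT alone, *Cdh6* and *Cdh11* sit high in GαqKO, and the *Cdh2* points of both groups overlap.

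*Cdh3* encodes P-cadherin, the type I cadherin of basal epithelial layers (ENSMUSG00000061048.9, GRCm39 chromosome 8, 107237456 to 107283929, plus strand). Its normalized count was 2003, 1859 and 1819 in WT replicates 1, 2 and 3, and 4.70, 9.25 and 2.01 in GαqKO replicates 1, 2 and 3. Every WT library therefore held *Cdh3* far above every GαqKO library. The means were 1894 ± 96.6 and 5.32 ± 3.66 (SD, n = 3 each), and the log2 fold change was -8.40 (SE 0.31, limma, adjusted p = 3.34e-11). In the 5 libraries with recovered reads, *Cdh3* had 5619 reads in WT and 13 in GαqKO, a ratio of 281 with a 95% counting interval of 164 to 528. Such intervals cover counting error only.

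*Cdh1* encodes E-cadherin, the main adhesion molecule of epithelial adherens junctions (ENSMUSG00000000303.13, chromosome 8, 107329941 to 107396880, plus strand). Its normalized count was 241, 235 and 238 in WT and 8.45, 10.4 and 5.04 in GαqKO. The groups did not overlap, and the 3 WT values lay within a few counts of each other. The log2 fold change was -4.79 (SE 0.24, limma, adjusted p = 8.62e-10), and the recovered reads, 707 in WT and 18 in GαqKO, gave a ratio of 25.5 (95% counting interval 16.0 to 43.3).

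The summed level of 10 epithelial markers was 816 to 912 normalized counts in WT and 13.1 to 24.3 in GαqKO, so the groups did not overlap, and *Krt19* and *Krt14* made up most of it. *Krt19*, a keratin of simple epithelia, was 602, 506 and 531 in WT and 5.63, 6.94 and 1.01 in GαqKO (limma, adjusted p = 2.84e-09). *Krt14*, a keratin of basal epithelial cells, was 261, 254 and 259.6 in WT and 0, 2.31 and 1.01 in GαqKO (adjusted p = 1.48e-09). These were the 2 of the 10 markers that could be tested, and both passed the filter through the WT libraries alone, so that the direction of this count was set by the filter. On the recovered reads 4 of 4 tested markers were called lower in edgeR and 4 of 7 in DESeq2, *Krt8* and *Krt18* besides. Over all genes, 1554 were called lower in edgeR and 1502 in DESeq2, and their shares of the genes tested by these tools are not given here. In limma 10.5% of all tested genes were called lower. *Krt8* and *Krt18* reached 10 in WT libraries alone, so the filter also set the direction of their calls in edgeR. The other markers were sparse in both groups. *Krt8* was between 7.12 and 30.1 in WT and at most 1.16 in GαqKO, and *Krt18* was between 9.16 and 18.8 in WT and at most 1.88 in GαqKO. *Epcam*, a surface protein that defines most epithelia, was between 1.02 and 5.22 in WT and between 2.82 and 8.09 in GαqKO, *Krt5* was at 0 in 5 of 6 libraries, and *Cldn3*, *Cldn4*, *Cldn7* and *Esrp1* did not exceed 7.12 in any library. The part of epithelial cells or of an epithelial state in the *Cdh3* and *Cdh1* levels was not tested.

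**Figure D2:**
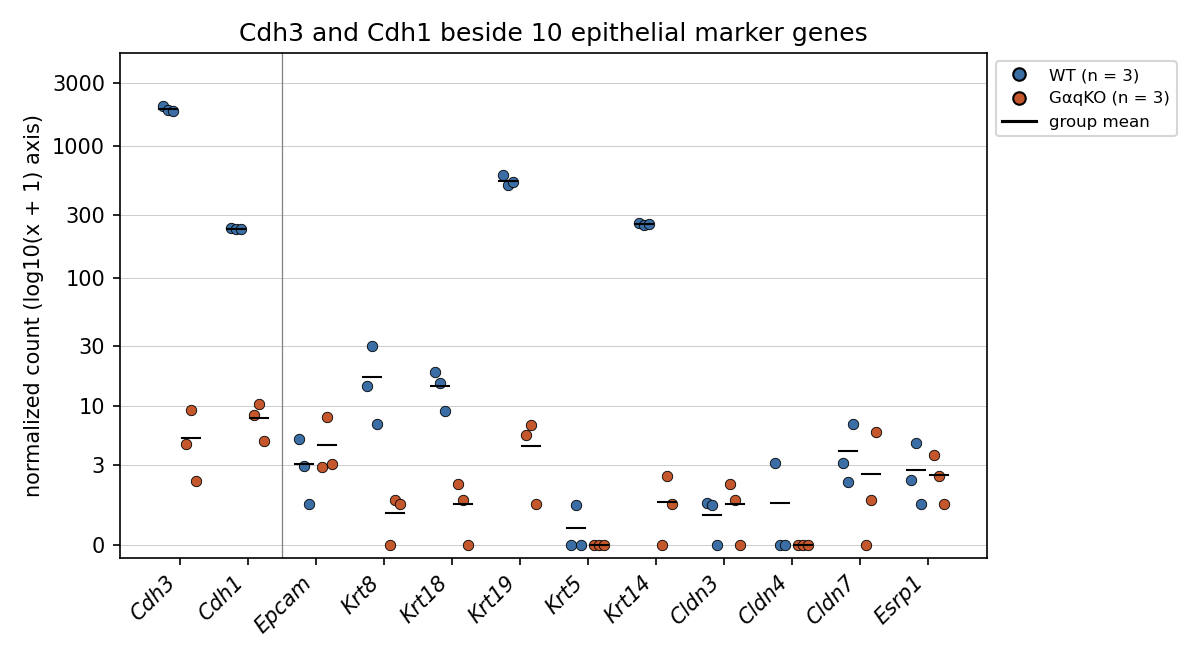
Normalized counts of *Cdh3*, *Cdh1* and 10 epithelial markers, on a log10(x + 1) axis, with points for the 3 WT and 3 GαqKO libraries and bars for group means. *Krt19* and *Krt14* sit high in WT alone, as the pair of cadherins left of the vertical line does, while *Epcam* and the claudins sit near 0 in both groups.

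*Cdh2* encodes N-cadherin, the type I cadherin typical of fibroblasts, neurons and muscle (ENSMUSG00000024304.15, chromosome 18, 16700793 to 16942381, minus strand). Its normalized count was 753, 763 and 837 in WT and 768, 753 and 757 in GαqKO. The ranges overlapped, with WT replicate 3 the highest of the 6. The log2 fold change was -0.04 with a 95% interval of -0.17 to 0.08 (limma, adjusted p = 0.523), an interval that holds neither a doubling nor a halving, although a missed threshold does not show that the levels were equal. Among 8 neural and glial markers, which N-cadherin-bearing cells of those lineages would carry, *Tubb3* was 428, 425 and 365 in WT and 64.8, 70.5 and 47.3 in GαqKO, 2 were at 0 throughout, and the summed level was 437 to 512 in WT and 121 to 143 in GαqKO.

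*Cdh11* encodes OB-cadherin, a type II cadherin of osteoblasts and other mesenchymal cells (ENSMUSG00000031673.7, chromosome 8, 103358726 to 103512687, minus strand). Its normalized count was 23.0, 11.7 and 27.5 in WT and 1366, 1288 and 1257 in GαqKO. The lowest GαqKO library was thus far above the highest WT library. The log2 fold change was 5.99 (SE 0.22, limma, adjusted p = 3.53e-11), and the 61 reads in WT and 2569 in GαqKO gave a ratio of 64.8 (95% counting interval 50.3 to 85.0).

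*Cdh6* encodes K-cadherin, a type II cadherin first known from kidney and also carried by migrating embryonic cells (ENSMUSG00000039385.6, chromosome 15, 13028787 to 13174004, minus strand). Its normalized count was 3.13, 0 and 3.05 in WT and 678, 632 and 688 in GαqKO. In WT these values stood for 3, 0 and 3 reads, so the gene was at the limit of detection there. The log2 fold change was 8.03 (SE 0.42, limma, adjusted p = 1.29e-09), and it was 7.35 without WT replicate 2, the library at 0. The ratio of GαqKO to WT from the recovered reads was 325, with a 95% counting interval of 149 to 889 that shows how loosely 6 reads in WT fix it.

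The sequence before the start of *Cdh6* is shown because this gene went from near 0 to a high level. The RefSeq promoter table, which is on GRCm38.p6, held *Cdh6*, *Cdh10* and *Cdh15* of the 10 genes. Short stretches of the *Cdh6* sequence are shown, 5′ to 3′ on the minus strand, with the matched letters in capitals. The first holds overlapping matches to the GC box GGGCGG, from 84 to 75 bases before the start (chr15:13173740-13173769). The second holds a match to the general E-box CANNTG, here CACTTG, from 15 to 10 bases before the start (chr15:13173676-13173705).
Cdh6 GC box stretch: caaggggaggGGGCGGGCGGgggcaggcac
Cdh6 E-box stretch: ccctcccacttcattCACTTGcaaatcagt
In the 250 bases before the start, searched on both strands, *Cdh6* had 2 matches to GGGCGG and 1 to CANNTG. Such matches are common, since 32.7% of the 32851 promoters in the table held GGGCGG and 66.2% held CANNTG. *Cdh15* had 3 matches to each, and *Cdh10* had 0 to GGGCGG and 4 to CANNTG. The stricter E-box CACCTG, present in 17.2% of promoters, and the TATA box TATAAA, present in 12.4%, had 0 matches in all of these windows. A match describes letters and not a bound site.

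*Cdh13* encodes T-cadherin, the glycolipid-anchored member, which binds adiponectin and low-density lipoprotein (ENSMUSG00000031841.20, chromosome 8, 119010328 to 120051660, plus strand). Its normalized count was 153, 148 and 133 in WT and 1041, 1177 and 1050.3 in GαqKO. Unlike *Cdh6* and *Cdh11*, it was well detected in both groups, and the groups did not overlap. The log2 fold change was 2.90 (SE 0.08, limma, adjusted p = 2.43e-12), and the ratio from the recovered reads was 7.61 (95% counting interval 6.86 to 8.46).

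The remaining members were near the limit of detection. *Cdh10*, a type II cadherin of brain (ENSMUSG00000022321.16, chromosome 15, 18818713 to 19016388, plus strand), was 15.7, 11.7 and 16.3 in WT and 2.82, 12.7 and 1.01 in GαqKO. GαqKO replicate 2 lay inside the WT range, so the groups overlapped. The log2 fold change was -1.71 (SE 0.60, limma, adjusted p = 0.0221), and the call did not hold in edgeR (adjusted p = 0.163) or DESeq2 (adjusted p = 0.402) on the recovered reads. It was also lost without WT replicate 1 (adjusted p = 0.0648), WT replicate 3 (0.0687), GαqKO replicate 1 (0.0736) or GαqKO replicate 3 (0.106).

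*Cdh4*, *Cdh15* and *Cdh5* did not reach the filter and were not tested. *Cdh4*, which encodes R-cadherin of retina and brain (ENSMUSG00000000305.13, chromosome 2, 179084201 to 179541166, plus strand), was 7.31, 3.89 and 3.05 in WT and 5.63, 12.7 and 8.06 in GαqKO. *Cdh15*, which encodes M-cadherin of muscle precursors (ENSMUSG00000031962.7, chromosome 8, 123574705 to 123596048, plus strand), was 5.22, 0.971 and 4.07 in WT and 1.88, 0 and 1.01 in GαqKO. *Cdh5*, which encodes VE-cadherin of endothelium (ENSMUSG00000031871.10, chromosome 8, 104828231 to 104871143, plus strand), was 3.13, 0.971 and 1.02 in WT and 1.88, 8.09 and 3.02 in GαqKO. The groups overlapped for all 3 genes, and a difference was not detectable at this depth. Markers of the cell types these cadherins define were as sparse. The summed level of 8 endothelial markers was 11.7 to 27.1 in WT and 17.1 to 27.7 in GαqKO. That of 8 skeletal muscle markers was 20.4 to 27.2 and 16.9 to 29.2, with 2 muscle markers at 0 in all libraries. Of each of these lists limma and edgeR tested 1 gene and DESeq2 tested 3, and none was called. The 7 macrophage markers, another cell type that a fibroblast culture can hold, summed to 109 to 122 in WT and 71.4 to 111 in GαqKO. Limma and edgeR tested 2 of them and DESeq2 tested 5, again with none called. Limma called 20.7% of all tested genes in either direction, so with so few markers tested the lack of calls says little about these cell types.

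Levels of the cadherins were compared with each other only per kilobase of exon. The length was that of all annotated exons of a gene merged, not of the transcripts present, so the order of close neighbours rests on that choice. Separate ranges cover the spread between libraries only. In WT MEFs the level, in normalized counts per kb, was 288 for *Cdh3*, 90.4 for *Cdh2*, 51.3 for *Cdh1* and 12.6 for *Cdh13*, and the ranges of these neighbours over the 3 libraries were separate. The other genes of WT were at or below 1.78, and the ranges of neighbours in that order overlapped. In GαqKO MEFs the order was *Cdh11* at 112, *Cdh13* at 94.4, *Cdh2* at 87.6 and *Cdh6* at 65.3, again with separate ranges, and the other genes were at or below 1.72 with overlapping ranges. *Cdh2* thus came below *Cdh3* alone in WT and below *Cdh11* and *Cdh13* in GαqKO, at a similar level in both.

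The summed level of the 10 genes was 447 ± 13.9 normalized counts per kb in WT and 365 ± 6.58 in GαqKO (SD, n = 3 each). Without regard to length the order of the sums was the opposite, at 3034 to 3208 normalized counts in WT and 3772 to 3903 in GαqKO, so no direction is read from the sum. Type I members held 96.4% ± 0.19 of the summed level in WT and 25.1% ± 0.14 in GαqKO. Type II members held 0.784% ± 0.255 and 49.1% ± 1.42, and *Cdh13* held 2.81% ± 0.17 and 25.9% ± 1.54. Of the same sum over all 10 genes, *Cdh3* alone held 64.4% in WT and 0.220% in GαqKO, whereas *Cdh2* held 20.3% and 24.0%. These shares restate the members' levels and were given no test.

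**Figure D3:**
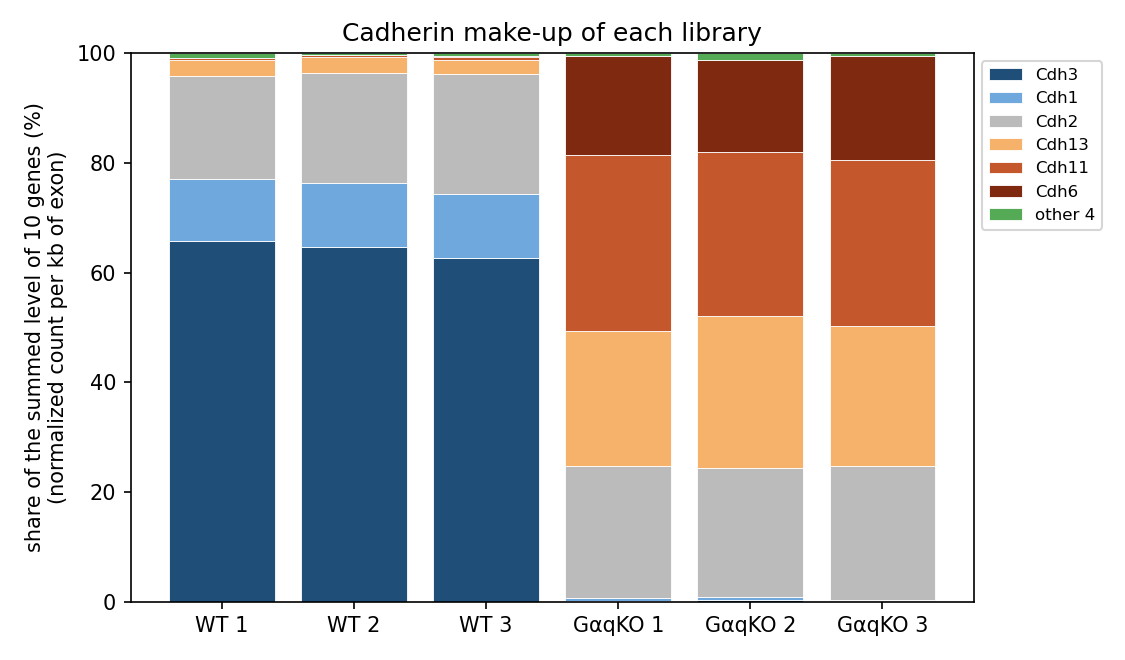
Share, in percent, of the summed level (normalized counts per kb of exon) of the 10 cadherin genes held by each gene in each of the 3 WT and 3 GαqKO libraries. *Cdh3* takes 64.4% on average in WT, and *Cdh11*, *Cdh13*, *Cdh2* and *Cdh6* together fill the GαqKO bars.

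Of the 10 genes, 6 lie on chromosome 8 and 2 on chromosome 15. *Cdh3* and *Cdh1* are neighbours on the same strand, 46.0 kb apart, and both fell. The nearest tested protein-coding genes outside the pair did not follow them. *Zfp90*, 71.1 kb before *Cdh3*, was 746 ± 45.5 in WT and 708 ± 27.7 in GαqKO (log2 fold change -0.07, limma, adjusted p = 0.313), and *Tango6*, 12.8 kb after *Cdh1*, was 525 ± 33.3 and 515 ± 12.99 (log2 fold change -0.03, adjusted p = 0.744). Likewise *Drosha*, 93.3 kb past the 3′ end of *Cdh6*, which is on the minus strand, had a log2 fold change of 0.01 (limma, adjusted p = 0.899). Around *Cdh13* the changes were small beside its own, with log2 fold changes of 0.29 for *Mphosph6*, 482 kb before, and 0.60 for *Hsbp1*, 19.5 kb after (adjusted p = 0.00139 and 1.77e-06). *Cdh11* stands in a long stretch without tested protein-coding genes, the nearest being *Tk2* at 1441 kb with a log2 fold change of 0.54 (adjusted p = 3.38e-05). Chromosome 8 as a whole had a median log2 fold change of 0.29 over 803 tested genes, against -0.01 over all tested genes. On it *Cdh3* and *Cdh1* lay below that median and *Cdh11* and *Cdh13* above it. On chromosome 15, which holds *Cdh6* and *Cdh10*, the median was 0.16 over 586 tested genes. A part of chromosome position in these changes was not tested. These neighbours were chosen after their values were seen.

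The proteins that bind cadherin tails or stand beside them in the adherens junction had log2 fold changes between -1.88 and 1.20. Of 21 such genes 20 were tested, and 3 were called lower, beside 10.5% of all tested genes, and 0 higher, beside 10.2% (limma, with also 0 higher at an unadjusted p under 0.05 and the same fold threshold, and with the same counts in edgeR and DESeq2). At the adjusted p alone, 12 were lower and 3 higher, beside 34.1% and 31.8% of all tested genes, and the median log2 fold change was -0.25. In so small a list, calls at these shares are no result about the junction as a whole. The largest fall was that of *Jup*, which encodes plakoglobin, the γ-catenin that binds cadherin tails in adherens junctions and desmosomes. *Jup* was 1533, 1413 and 1381 in WT and 387, 414 and 373 in GαqKO, with no overlap (log2 fold change -1.88, SE 0.06, adjusted p = 1.34e-11). *Nectin2*, a nectin adhesion receptor of the junction, was 569 ± 57.6 in WT and 258 ± 26.7 in GαqKO (log2 fold change -1.14, adjusted p = 1.46e-07). *Plekha7*, which ties p120-catenin to microtubules in epithelial junctions, was 34.7 ± 5.09 and 13.8 ± 1.10 (log2 fold change -1.27, adjusted p = 0.000913).

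The catenins that every classical cadherin uses stayed abundant. *Ctnnb1*, which encodes β-catenin, was 1011 ± 20.1 in WT and 1092 ± 51.7 in GαqKO (log2 fold change 0.11, limma, adjusted p = 0.0823). *Ctnna1*, which encodes α-catenin, had the highest mean normalized count of the list, without regard to length, and fell from 4540.4 to 3987 (log2 fold change -0.19, adjusted p = 0.000609). *Ctnnd1*, which encodes p120-catenin and stabilises cadherins at the surface, was 899 ± 27.0 and 521 ± 56.1 (log2 fold change -0.79, adjusted p = 5.78e-07), although 37.6% of its exon bases are shared with an overlapping gene of the table, so its counts are uncertain. Of the other partners with high counts, *Ajuba*, a LIM protein that binds α-catenin, had a log2 fold change of -0.15 (adjusted p = 0.00394), and *Pkp4*, a p120-related armadillo protein, had one of 0.36 (adjusted p = 2.31e-05). None of these 5 genes passed the fold threshold.

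**Figure D4:**
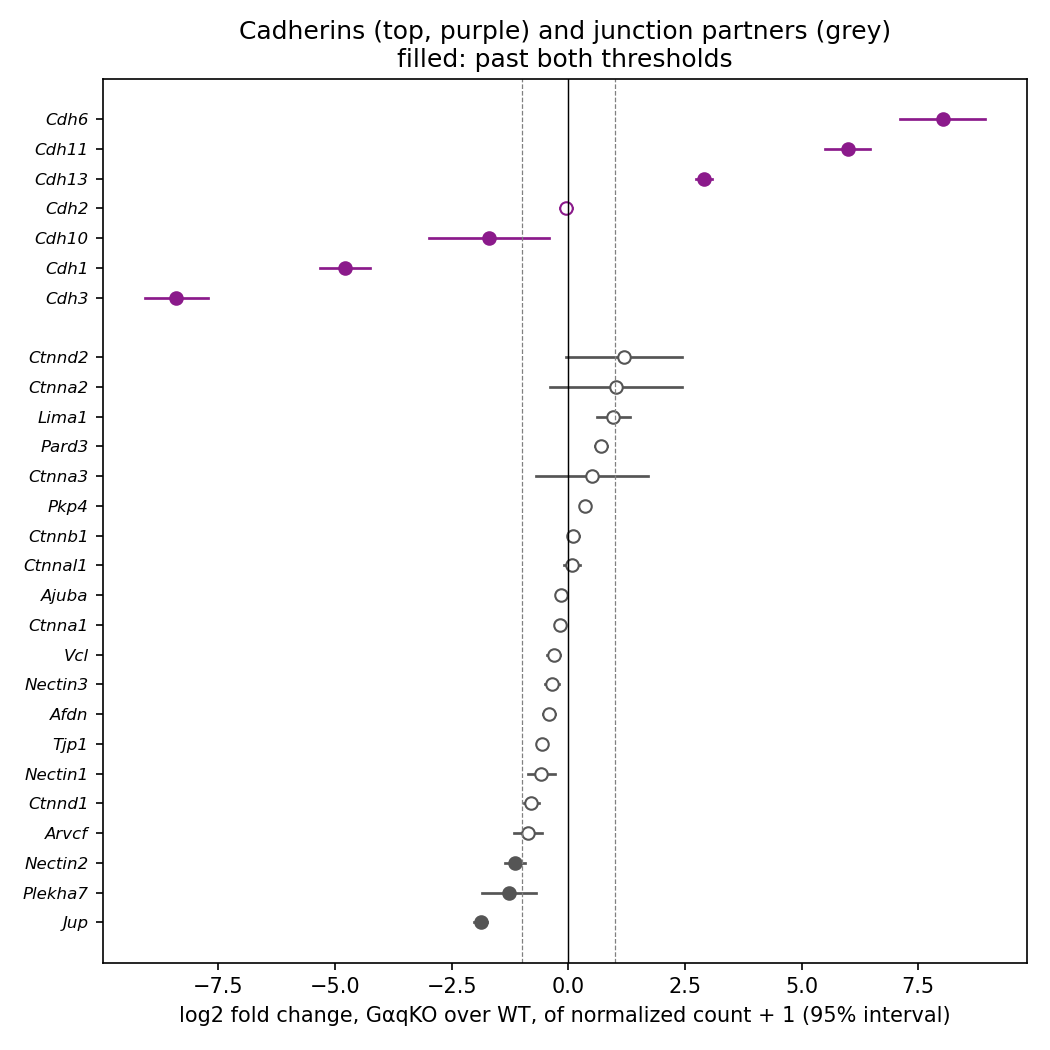
Log2 fold changes (GαqKO over WT, of normalized count + 1) with 95% intervals for the 7 tested cadherins (top) and the 20 tested junction partners (below), where filled points passed both thresholds and dashed lines mark a log2 fold change of -1 and 1. The cadherins spread from -8.40 to 8.03, whereas the partners lie between -1.88 for *Jup* and 1.20 for *Ctnnd2*, whose wide interval includes 0.

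Genes of cadherin processing and turnover were given the same count. Of 11 listed genes 9 were tested, and 0 were called in either direction in limma, beside 20.7% of all tested genes, also at an unadjusted p under 0.05 with the fold threshold, and in edgeR, whereas DESeq2, which tested all 11, called 1 higher (*Pcsk6*, a propeptide-cutting convertase at 0.971 to 5.22 in WT and 8.06 to 19.7 in GαqKO). At the adjusted p alone 6 were lower and 1 higher, beside 34.1% and 31.8% of all tested genes, and 65.8% in either direction. The median log2 fold change of the list was -0.29. *Adam10*, the protease that sheds the E- and N-cadherin ectodomains, fell from 3396 ± 87.5 to 2308 ± 63.0 (log2 fold change -0.56, adjusted p = 6.33e-08). *Furin*, which removes the cadherin propeptide, rose with a log2 fold change of 0.43 (adjusted p = 8.55e-06).

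Of 12 transcription factors known to act on *Cdh1*, 10 were tested, 3 were called higher, beside 10.2% of all tested genes, and 1 lower, beside 10.5%, and the median log2 fold change was 0.29. *Snai1*, a zinc-finger repressor of *Cdh1*, was 563, 497 and 470.2 in WT and 1754, 2013 and 1917 in GαqKO, with no overlap (log2 fold change 1.89, SE 0.07, limma, adjusted p = 4.12e-11). *Twist2*, a basic helix-loop-helix factor of mesenchyme, rose from 594 ± 31.1 to 1831 ± 72.1 (log2 fold change 1.62, adjusted p = 1.78e-11), with 26.6% of its exon bases shared with overlapping genes. *Zeb1*, a zinc-finger homeobox repressor, rose from 673 ± 24.4 to 1532 ± 69.0 (log2 fold change 1.19, adjusted p = 3.08e-10).

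Other repressors of the same list went the opposite way. *Snai3*, which passed the filter through the WT libraries alone, was called lower, at 22.0 ± 6.07 in WT and 1.71 ± 1.502 in GαqKO (log2 fold change -3.27, limma, adjusted p = 0.000126). At the adjusted p alone, *Zeb2* was lower with a log2 fold change of -0.87, *Snai2* with -0.37 and *Tcf3* with -0.35, and *Twist1* was higher with 0.93 (adjusted p = 8.69e-09, 0.000115, 5.85e-06 and 4.76e-09). Of the factors that support epithelial genes, *Grhl2* was between 3.89 and 24.3 in all libraries and did not pass (adjusted p = 0.0539), *Klf4* was lower at the adjusted p with -0.41, *Ovol1* was at most 3.47 and *Elf3* was listed at 0 in all 6 libraries. The snail, ZEB and twist families thus each had a member that was higher in GαqKO, and the snail and ZEB families also had one that was lower. Whether any of these factors acted on the cadherin genes was not tested.

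*Cdh3*, which had the highest mean level per kb and the largest absolute fold change, was taken to find the genes with the most similar pattern. Over the 6 libraries, the Pearson r of log2(normalized count + 1) with *Cdh3* was 0.9999 for *Sema3e*, 0.9996 for *Cdh1*, 0.9996 for *Slc4a4*, 0.9994 for *Rnpepl1* and 0.9994 for *Pkp2*, which encodes the desmosomal protein plakophilin-2. *Sema3e* was 917 ± 22.9 in WT and 1.08 ± 1.16 in GαqKO, and *Pkp2* was 487 ± 16.6 and 7.65 ± 2.69. Any gene that separates the groups with a small spread scores high on this measure, and 604 tested genes did so with an r over 0.99, so the closeness of *Cdh1* to *Cdh3* is a description of 6 libraries that share the same split into groups.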

How the data were processed

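RNA was measured in 3 WT and 3 GαqKO libraries, grouped by their labels. The authors selected poly-A RNA, aligned paired-end reads to GRCm39 with Rbowtie2, counted them with featureCounts on GENCODE release 32 and used DESeq2. The strand setting of the counting is not given in the sources used here, although the kit marks strand. The deposited signal is a table of normalized counts, scaled by the authors and not raw. In 5 libraries 100.0% of nonzero values were whole reads (tolerance 0.02 reads). The reads of GαqKO replicate 3 were not used. Symbols and coordinates came from GENCODE release 39 (GRCm39), which matched 56310 of 56953 identifiers (98.9%).

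Genes at 10 normalized counts or above in 3 or more libraries were tested with limma 3.58.1 (R 4.3.3) after adding 1 and taking log2, with an intensity-dependent prior spread (trend). Fold changes on this scale understate changes of low genes. In edgeR 4.0.16 (quasi-likelihood) and DESeq2 1.42.0, the recovered reads of 5 libraries were tested as alternatives, beside other pseudocounts (0.5 and 5), filters, TMM scaling, a replicate block, no trend and each library left out. On simulated data, whose settings are not given here, limma recovered 199 of 200 changed genes with 1 false call among 13992 genes. In edgeR 200 were recovered with 1 false call among 14179, and in DESeq2 197 with 0 among 24707. How often calls were false or missed in the real libraries, or for genes near the limit of detection there, was not tested. The members and lists were chosen with earlier results of these data known. From each list the called genes and the 3 of highest mean were named, except for a gene that is not reported here, and *Ctnnb1*, *Ctnnd1*, *Zeb2*, *Snai2*, *Grhl2*, *Klf4*, *Ovol1*, *Elf3*, *Pcsk6* and the marker genes were added after their values were seen. Python 3.11.15, scipy 1.17.1, pandas 2.3.3 and matplotlib 3.10.9 were used.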

Additional observations from a re-analysis of the deposited data

How the results depend on the processing

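Over 15 alternative settings, 93 of 101 fold changes kept their direction and side of the threshold, and 84 of 90 counts of calls stayed within 1.5 times the reported count. *Cdh1*, *Cdh3*, *Cdh6*, *Cdh11* and *Cdh13* kept their calls wherever they were tested, with log2 fold changes of -4.98 to -4.25, -8.84 to -7.58, 6.60 to 8.48, 5.64 to 6.23 and 2.84 to 2.95. *Cdh10* lost its call in 7 settings and ranged from -2.48 to -0.93, and *Cdh2* changed sign to 0.00313 without WT replicate 3 (adjusted p = 0.965). When 10 normalized counts were required in every library, 0 cadherins were lower, since *Cdh1*, *Cdh3* and *Cdh10* were then not tested, and 2 were higher, and over all genes 831 were higher and 765 lower. When single libraries were left out, the cadherins called numbered 3 higher and 2 to 3 lower, *Cdh2* ranged from -0.0729 to 0.00313, partners higher numbered 0 to 1 (*Ctnnd2* without WT replicate 1, and *Lima1* without WT replicate 3 or GαqKO replicate 1), and all genes numbered 1426 to 1545 higher and 1492 to 1603 lower.

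The replicate numbers gave no sign of pairing, as the correlations of same-numbered deviations were -0.045, -0.148 and -0.064, and those of different-numbered ones lay between -0.075 and 0.125. Such small correlations cannot settle whether the libraries were prepared in pairs. A replicate block gave 3 cadherins higher and 3 lower, and 1421 genes higher and 1478 lower. Depth limits *Cdh4*, *Cdh5*, *Cdh10* and *Cdh15*, and *Cdh6* in WT.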

Other observations

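The wider cadherin superfamily, 31 genes beyond those above, was mostly below the filter, with 12 tested. Of these, 3 were called higher in GαqKO, beside 10.2% of all tested genes, and 4 lower, beside 10.5% (limma). *Cdh26*, *Dchs1*, *Celsr1*, *Celsr2* and *Dchs2* needed the group in which they were high to pass the filter, so the counts are no evidence about the superfamily. *Cdh26*, a cadherin that binds integrins, was 4.18, 2.91 and 3.05 normalized counts in WT and 577, 483 and 493 in GαqKO (log2 fold change 6.89, adjusted p = 4.10e-12). The groups of *Cdh26* did not overlap.

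The large cadherins of planar polarity and the Fat-Dachsous pair split between directions. *Dchs1*, the ligand of Fat4, was 0, 0 and 1.02 in WT and 260.1, 293 and 225 in GαqKO (adjusted p = 2.35e-10), and *Fat4*, its receptor, was 71.8 ± 18.9 and 402 ± 46.8 (SD, n = 3 each, log2 fold change 2.49, adjusted p = 1.05e-08). Both members of the pair were therefore higher in GαqKO, where the ratio for *Dchs1* rests on 1 read in WT against 530 in GαqKO and has a 95% counting interval of 146 to 32273. *Dchs2* was lower, at 48.9 ± 3.91 and 9.66 ± 6.90 (log2 fold change -2.56, adjusted p = 0.000562). *Celsr1* and *Celsr2*, which hold cells in planar register in epithelia, were 255 ± 46.8 and 153 ± 15.6 in WT and 7.96 ± 3.89 and 1.01 ± 0.95 in GαqKO (adjusted p = 1.07e-08 and 5.58e-09). *Cdh18* was called lower although its groups overlapped, at 42.7 ± 12.7 and 19.7 ± 9.08 (log2 fold change -1.12, adjusted p = 0.00917).

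The genes of this list with the highest mean normalized counts passed the adjusted p but not the fold threshold, or neither. *Clstn1*, which encodes calsyntenin-1, was 6414 ± 141 in WT and 4094 ± 109 in GαqKO (log2 fold change -0.65, adjusted p = 7.11e-09). *Fat1* was 3943 ± 930 and 2194 ± 100.5 (log2 fold change -0.82, adjusted p = 1.95e-05), and *Cdh24* was 785 ± 60.6 and 845 ± 37.8 (log2 fold change 0.11, adjusted p = 0.163).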
